A study of Mus musculus with 6 samples.

Results

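The genes described here are 7 genes annotated as long non-coding RNAs, in mouse microglia: Malat1, Neat1, Miat, Pvt1, Dleu2 and the adjacent chromosome 17 genes Gm26924 and Gm26917. They were taken by name from the count tables, so they are 7 of 38924 gene rows, and all 7 passed the filter on low counts. The rule sets no threshold, but the group was selected on level in these libraries, with differences between the ages already known. For that reason their levels, and for Gm26924 and Gm26917 also their differences between the ages, are given as a description. The label under which they were grouped, abundant nuclear RNAs, was checked only in part. Malat1, Neat1, Gm26924 and Gm26917 ranked between 1 and 242 of all rows by counts in every library, Dleu2 ranked between 1307 and 2063, and Pvt1 and Miat ranked from 5764 to 11980, so the latter pair was not abundant. Whole-cell RNA does not show where in the cell a transcript lies.

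The study asked how microglia of heterozygous mutant (Het) female mice differ from wild-type (WT) microglia, and only its WT libraries were analysed here. Microglia were taken with CD11b magnetic beads from whole brains of female WT C57BL/6 mice, 3 mice at 5 weeks and 3 at 24 weeks, with no transgene or treatment. Each library is 1 mouse. The 5-week libraries shared 1 sequencing lane and the 24-week libraries another, so a difference between the ages cannot be told apart from one between lanes. Whether cell isolation and library preparation were also done by age group is not stated in the paper. Libraries held 23198065 to 46434788 gene counts at 5 weeks and 10410625 to 13554336 at 24 weeks. Microglial markers summed to 25800 to 30300 normalized CPM (counts scaled to library size) at 5 weeks and 22400 to 24900 at 24 weeks, and the highest of the other cell type lists, oligodendrocyte markers, reached 2990. Xist, the long non-coding RNA made from the inactive X chromosome of female cells, took 0.123 to 0.287% of gene counts in 5 libraries and 0.000749% in 24-week replicate 3. That library therefore stands apart, as the study used female mice. The sex and the label of its mouse were not tested, so sex may differ within the 24-week group. Leaving out 24-week replicate 3 changed no call among the 7 genes.

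Most long non-coding RNAs are made like messenger RNAs but carry no long reading frame. Malat1 is a single-exon RNA that gathers in nuclear speckles, where splicing factors are stored. Neat1, its neighbour, is the scaffold of the paraspeckle, a nuclear body that forms only around the long Neat1 transcript. Malat1 and the long Neat1 transcript end in a triple helix in place of a poly(A) tail, because RNase P cuts off a small tRNA-like RNA behind it. Miat (also called Gomafu) is a nuclear RNA best known from neurons and binds splicing factors through a repeated UACUAAC motif. Pvt1 lies next to the Myc oncogene, and Dleu2 is the host transcript of the microRNAs miR-15a and miR-16-1. Gm26924 and Gm26917 are predicted genes, annotated as long non-coding RNAs with no assigned function. A pseudogene of 18S ribosomal RNA lies over 68.0% of Gm26924 and starts 12 bases after Gm26917 ends. The class of both genes therefore rests on annotation only, and whether their counts come from separate RNAs was not tested.

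Sequences within these RNAs are shown first, read from GENCODE release M21 transcripts on GRCm38. The ends of Malat1 and Neat1 share their letters at 3 places, printed in capitals: TTTCTTTT, TTTTGCTTTT and AAAAAGCAAAA, the strands of the triple helix. A tRNA B box (GGTTCNANNCC), also in capitals, follows in the tRNA-like part. For Malat1 that part lies inside the annotated transcript (chr19:5795920-5796080, minus strand), and for Neat1 (chr19:5824708-5824807, minus strand) it is a separate annotated small RNA, Gm27702 (chr19:5824652-5824707, minus strand), which begins at the next base.
Malat1 end: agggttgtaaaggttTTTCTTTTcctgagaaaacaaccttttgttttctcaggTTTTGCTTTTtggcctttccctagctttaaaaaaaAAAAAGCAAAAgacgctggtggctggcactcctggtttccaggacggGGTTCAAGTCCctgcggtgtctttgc
Neat1 end: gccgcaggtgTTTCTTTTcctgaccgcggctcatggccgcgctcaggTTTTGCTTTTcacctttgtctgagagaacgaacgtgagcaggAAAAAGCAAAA
Gm27702: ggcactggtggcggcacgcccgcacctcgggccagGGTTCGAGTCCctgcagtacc

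Among 2209 long non-coding transcripts of at least 1000 bases (the longest of each gene, searched on the transcript strand), only Malat1 and Neat1 held the 3 strands in this order with at most 80 bases between them, which is 0.0905% of them. The letters searched are those shared by the Malat1 and Neat1 ends, so that both hold them was set beforehand. Taken singly, TTTCTTTT was present in 23.1%, TTTTGCTTTT in 1.99%, AAAAAGCAAAA in 0.724% and the B box in 4.35%. In the Malat1 transcript the B box ended 245 bases before the annotated end. Gm27702 itself, named here for its position and not by the naming rule, had 4 to 50 counts per library and was not tested.

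Miat was the only one of the same transcripts with 6 or more TACTAAC motifs (capitals), whereas 6.29% had any. The motif was searched because it is known from Miat, and 6 is its own count, not adjusted for transcript length. Its 6 copies lie between bases 4941 and 5629 of the 9163-base transcript. The stretch with 3 of them is chr5:112216733-112216817 on the minus strand.
Miat repeat: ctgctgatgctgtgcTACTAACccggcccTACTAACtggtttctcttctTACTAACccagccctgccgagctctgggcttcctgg

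Inside Dleu2, RefSeq (GRCm38.p6) places miR-15a-5p at chr14:61632075-61632096 and miR-16-5p at chr14:61631936-61631957, both on the minus strand like Dleu2. Both carry the seed AGCAGCA (bases 2 to 8, capitals), the part of a microRNA that pairs with its targets. Neither mature sequence overlaps an annotated Dleu2 exon, but the Mir16-1 hairpin (chr14:61631880-61631972) does.
miR-15a-5p: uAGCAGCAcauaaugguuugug
miR-16-5p: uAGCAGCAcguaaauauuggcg

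On chromosome 17, Gm26917 (chr17:39843013-39846341) ends 616 bases before Gm26924 (chr17:39846958-39848788) on the plus strand. RefSeq places a pseudogene of 18S ribosomal RNA, Rn18s-rs5 (chr17:39846354-39848202), over 1245 bases (68.0%) of Gm26924, and it starts 12 bases after Gm26917 ends. GENCODE also has a ribosomal RNA gene on the minus strand that covers the whole of Gm26924 and has no row in the count tables. The facing ends of the pair, 616 bases apart, are shown: the last 100 bases of Gm26917 (chr17:39846242-39846341) and the first 100 of Gm26924 (chr17:39846958-39847057). The printed bases of Gm26924 lie wholly inside Rn18s-rs5.
Gm26917 end: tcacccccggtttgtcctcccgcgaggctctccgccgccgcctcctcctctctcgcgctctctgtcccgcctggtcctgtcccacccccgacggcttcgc
Gm26924 start: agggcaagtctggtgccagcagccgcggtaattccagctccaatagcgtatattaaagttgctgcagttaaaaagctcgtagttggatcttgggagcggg
The longest transcript of Gm26917 was 69.1% G and C and that of Gm26924 60.2%, against 34.5 to 55.1% for the other 5. Of the 101-base windows of Gm26924, the length of 1 read, 89.9% also occur in annotated transcripts of other genes, all of them at this locus on the opposite strand. The share was 17.3% for Miat, whose overlapping partner Gm26953 on the other strand had 0 counts in every library, and 0 to 5.13% for the other 5.

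**Figure D1:**
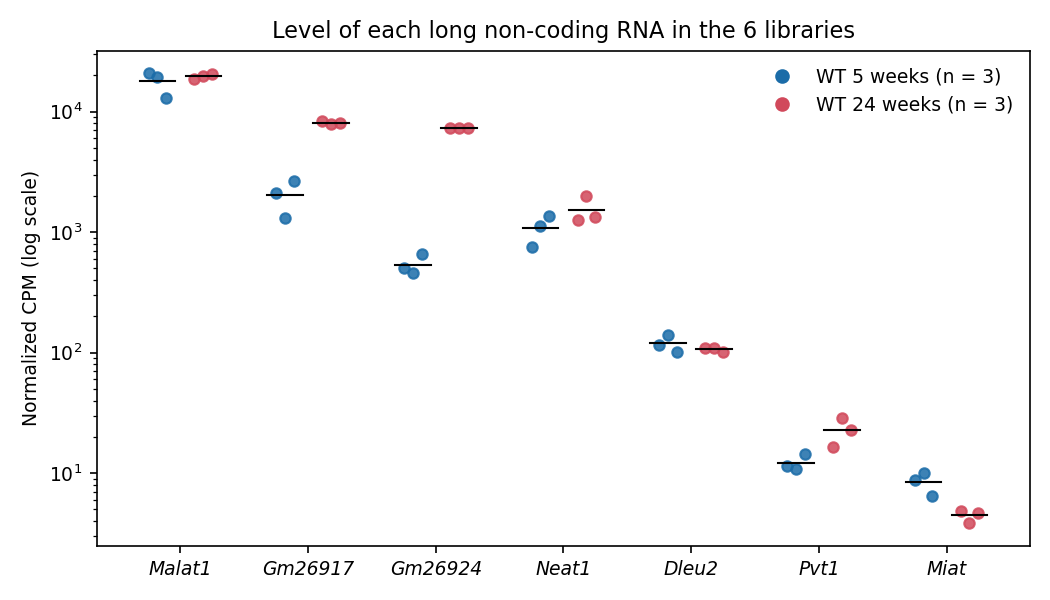
Normalized CPM (log axis) of each long non-coding RNA, with 1 point per library and a black line at the mean of 3 libraries. Gm26917 and Gm26924 lie higher in all 24-week libraries, while the ages overlap for Malat1, Neat1 and Dleu2.

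Per kilobase of exon, so that genes can be compared, Malat1 led at 5 weeks and Gm26924 at 24 weeks. At 5 weeks the order of CPM per kilobase was Malat1 (2550 ± 601, SD, n = 3), Gm26917 (609 ± 205), Gm26924 (294 ± 56.9), Neat1 (51.8 ± 14.3), Dleu2 (10.5 ± 1.77), Pvt1 (1.75 ± 0.276) and Miat (0.907 ± 0.194). No neighbours in that order overlapped between libraries. At 24 weeks it was Gm26924 (4000 ± 34.6), Malat1 (2810 ± 149), Gm26917 (2440 ± 80.5), Neat1 (73.7 ± 18.7), Dleu2 (9.41 ± 0.449), Pvt1 (3.25 ± 0.881) and Miat (0.48 ± 0.0593), again without overlap. Exon lengths are those of GENCODE M21, not of the older gene models used for counting. Together the 7 genes took 1.66 to 2.39% of gene counts at 5 weeks and 3.61 to 3.95% at 24 weeks, a difference of 1.71 percentage points that was 0.576 over all uniquely placed pairs. Without Gm26924 and Gm26917 the other 5 took 1.35 to 2.14% and 2.01 to 2.33%, which overlap (exact permutation test, two-sided, p = 0.3, Benjamini-Hochberg adjusted 0.333 over 10 shares).

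Between 24 and 5 weeks (edgeR quasi-likelihood test, Benjamini-Hochberg adjusted over 16157 genes, threshold 0.05), 4 of the 7 passed, Gm26924, Gm26917 and Pvt1 higher and Miat lower, while Malat1, Neat1 and Dleu2 did not pass. Of all genes tested 28.8% passed, 15.5% higher and 13.3% lower, and of 813 genes of long non-coding classes 18.9% passed, 11.6% higher and 7.38% lower. Nothing is read from the count of 4, since the genes were proposed with results known. The median log2 fold change was 0.51 over the 7, 0.00 over all genes and 0.04 over the long non-coding classes. Normalized CPM of the ages did not overlap in the same 4, as in 45.1% of all genes. With total counts as the only scaling, 3229 genes were higher and 1466 lower, against 2505 and 2141, and the median of all genes moved by 0.10 on the log2 scale.

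**Figure D2:**
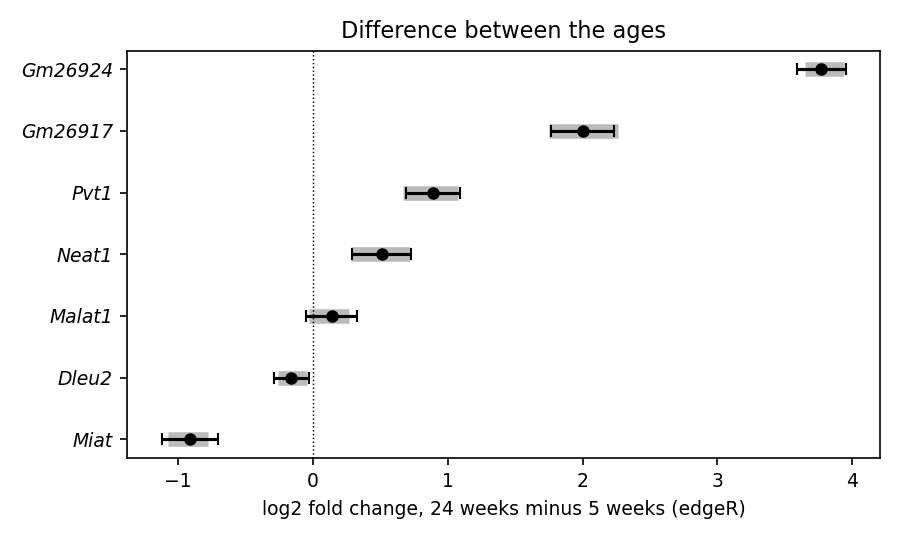
Difference between the ages for the 7 genes (log2, 24 weeks minus 5 weeks) from the edgeR fit (points, with bars of 1 standard error), over grey bars that span the values when each of the 6 libraries is left out in turn. Gm26924 and Gm26917 lie at 3.77 and 2.0, and for Malat1 the grey bar crosses 0.

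Malat1 (ENSMUSG00000092341, chr19:5795690-5802672, minus strand, a lincRNA with a longest transcript of 6983 bases) was the long non-coding RNA with most counts in every library and ranked 1 to 3 among all rows. Its normalized CPM was 20818, 19541 and 12994 at 5 weeks and 18484, 19838 and 20529 at 24 weeks. 5-week replicate 3 was the low library, and the other 5 lay within 18484 to 20818. The means were 17784 ± 4200 and 19617 ± 1040 (SD, n = 3), a log2 difference of 0.14 (SE 0.19, edgeR adjusted p = 0.618). Without 5-week replicate 3 the difference was -0.03, and after loess trends against length and GC content were taken out it was -0.05, so its sign depends on 1 library and on that correction. Malat1 took 1.21 to 2.05% of gene counts at 5 weeks and 1.87 to 2.11% at 24 weeks.

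Neat1 (ENSMUSG00000092274, chr19:5824708-5845478, minus strand) lies on the same strand as Malat1. GENCODE lists a 20771-base transcript and 3 shorter ones, among them a 3004-base form at the 5′ end (chr19:5842307-5845476), which starts 2 bases from the gene's first base. All share exons of 1 gene row, so the counts do not tell the scaffold form from the short form. Neat1 stood at 758, 1118 and 1349 normalized CPM at 5 weeks and at 1269, 1978 and 1347 at 24 weeks. The ages overlapped, with 5-week replicate 3 the highest of its group and 24-week replicate 2 the highest of all. The log2 difference was 0.51 (SE 0.22) and did not pass (edgeR adjusted p = 0.108). It was 0.72 without 5-week replicate 3 (adjusted p = 0.0273), 0.28 without 24-week replicate 2, and -0.05 with length and GC trends removed. As a share of gene counts, with no scaling factor, the ages did not overlap, at 0.0746 to 0.126% and 0.128 to 0.21% (exact permutation p = 0.1, the smallest that 3 against 3 allows, adjusted 0.143). That separation was lost over all uniquely placed pairs, pairs on no exon included, where the difference was 0.0144 in place of 0.0555 percentage points (exact permutation p = 0.4).

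Within each library Neat1 had 0.0364, 0.0572 and 0.104 counts per count of Malat1 at 5 weeks and 0.0687, 0.0997 and 0.0656 at 24 weeks. The ratio spread most among the 5-week mice. It differed between the ages by 0.35 on the log2 scale (exact permutation p = 0.5), and by -0.01 without 5-week replicate 1 and 0.75 without 5-week replicate 3.

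Dleu2 (ENSMUSG00000097589, chr14:61602839-61682373, minus strand) had 116, 141 and 101 normalized CPM at 5 weeks and 110, 109 and 101 at 24 weeks. The values of 24-week replicates 1 and 2 lay inside the 5-week range. That of 24-week replicate 3 lay just below it, at 8.89 CPM per kilobase against 8.91 in 5-week replicate 3. The log2 difference of -0.16 (SE 0.13, edgeR adjusted p = 0.371) was -0.26 without 5-week replicate 3 (adjusted p = 0.0497) and -0.04 without 5-week replicate 2. The row of Mir16-1, the hairpin inside Dleu2, held 64, 64 and 170 counts at 5 weeks and 6, 12 and 12 at 24 weeks. It fell by 1.87 on the log2 scale (SE 0.39, adjusted p = 0.00507), although Dleu2 itself did not pass. These libraries were not made to capture mature microRNAs, and pairs on the hairpin can come from the host transcript. Mir15a held 17 to 45 counts and 2 to 7 counts and was not tested.

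Miat (ENSMUSG00000097767, chr5:112213228-112229395, minus strand) was lower at 24 weeks. Its normalized CPM was 8.81, 10 and 6.46 at 5 weeks and 4.88, 3.84 and 4.67 at 24 weeks, with no overlap. This rests on 229 to 282 counts per library at 5 weeks and 50 to 67 at 24 weeks. It fell by 0.91 on the log2 scale (SE 0.21, edgeR adjusted p = 0.00918), and the log2 difference was -1.07 to -0.78 when each library was left out. Markers of other cells are given beside this change because Miat is best known from neurons. Neuronal markers, all 10 tested, rose in 3, fell in 2 and did not pass in 5, with a summed level of 146 to 187 CPM at 5 weeks and 112 to 200 at 24 weeks and no marker at 0, so the sums overlapped. Of all genes tested, 15.5% rose and 13.3% fell. Astrocyte markers fell in 3 of 7 (449 to 634 against 357 to 415 CPM) and oligodendrocyte markers in 4 of 8 (1750 to 2990 against 1070 to 2920 CPM). Their part in the Miat change was not tested, and in bulk RNA fewer cells of a type and less RNA per cell cannot be told apart.

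Pvt1 (ENSMUSG00000097039, chr15:62037986-62378096, plus strand) was higher at 24 weeks. It had 11.4, 10.9 and 14.4 normalized CPM at 5 weeks and 16.5, 28.9 and 22.9 at 24 weeks, and the ages did not overlap. Pvt1 rose by 0.89 on the log2 scale (SE 0.20, edgeR adjusted p = 0.007), and by 0.67 without 24-week replicate 2, its highest library. Myc, which codes for a transcription factor of cell growth and lies 47612 bases upstream on the same strand, also rose, from 32.1 ± 10.8 to 74.9 ± 7.93 normalized CPM (1.21, SE 0.20, adjusted p = 0.00133). It was the only protein-coding gene within 200000 bases. Endothelial markers rose in 8 of 9 between the ages, where 15.5% of all genes tested rose, with none lower and none at 0. Their sum was 361 to 392 CPM at 5 weeks and 698 to 748 at 24 weeks. Their part in the differences of Pvt1, Gm26924 and Gm26917 was not tested.

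Gm26924 (ENSMUSG00000098178, 1 exon of 1831 bases) had 504, 456 and 655 normalized CPM at 5 weeks and 7353, 7361 and 7248 at 24 weeks. The 24-week mice differed among themselves by a coefficient of variation of 0.866%, lower than in all but 0.73% of the genes tested, against 19.3% at 5 weeks. The log2 difference was 3.77 (SE 0.18), or 13.6-fold, which ranked 8 of 16157 genes and 1 of the 114 with a mean over 1000 CPM at either age. It ranked 174 to 242 among all rows by counts at 5 weeks and 3 or 4 at 24 weeks.

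Gm26917 (ENSMUSG00000097971, exons of 3329 bases) had 2092, 1316 and 2676 normalized CPM at 5 weeks and 8425, 7923 and 8012 at 24 weeks. Again the 24-week libraries lay close together and above every 5-week library. The log2 difference was 2.0 (SE 0.23), or 4.0-fold, rank 99 of all genes and 4 of the 114. For both genes the direction was the same with each library left out, at 3.65 to 3.94 for Gm26924 and 1.75 to 2.26 for Gm26917.

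The neighbours did not move by the same amount. Within a library Gm26924 had 0.241, 0.347 and 0.245 counts per count of Gm26917 at 5 weeks and 0.873, 0.929 and 0.905 at 24 weeks. The ratio differed by 1.72 on the log2 scale, with all 24-week libraries above all 5-week libraries. Their joint share of gene counts was 0.175 to 0.311% at 5 weeks and 1.57 to 1.62% at 24 weeks. The difference of 1.35 percentage points was 0.607 over all uniquely placed pairs, with the ages still apart. It is given as a description, since the pair was chosen with its difference known.

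**Figure D3:**
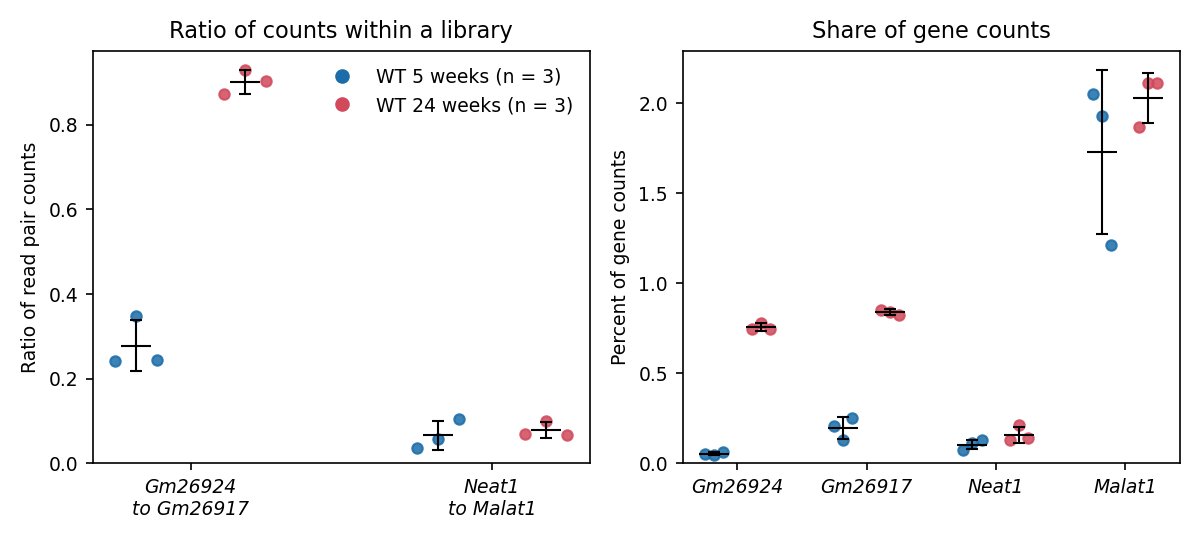
Left, ratio of read pair counts of 2 neighbouring genes within each library. Right, percent of gene counts of the same 4 genes. Points are libraries and black bars are the mean and SD of 3. The Gm26924 to Gm26917 ratio is 0.241 to 0.347 at 5 weeks and 0.873 to 0.929 at 24 weeks, while the Neat1 to Malat1 ratio overlaps between the ages.

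Measures of library makeup also moved with age. The mitochondrial ribosomal RNAs went the opposite way to Gm26924 and Gm26917: mt-Rnr2 fell from 1.62 ± 0.571% to 0.006 ± 0.00322% of gene counts (log2 difference -8.16, edgeR adjusted p = 3.5e-06) and mt-Rnr1 from 0.144 ± 0.0609% to 0.00444 ± 0.003% (-5.11, adjusted p = 9.86e-05). Gm23935, another ribosomal RNA row, rose by 0.97 (SE 0.25, adjusted p = 0.0153). Alignments at several positions, which were not counted, were 34.2 ± 1.41% of the table totals at 5 weeks and 22.9 ± 0.573% at 24 weeks. Which sequences gave them is not known here. Pairs on no exon rose from 41.0 ± 0.951% to 52.0 ± 3.14% of uniquely placed pairs, with no overlap. The part of these measures in the differences of Gm26924 and Gm26917 was not tested. As these measures follow age, they cannot be told apart from lane or from any preparation step done by age group.

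Among proteins that work with Malat1 and Neat1 some were higher and some lower, to be read against the 28.8% of all genes that passed (15.5% higher and 13.3% lower). Of 20 paraspeckle proteins, all tested, 2 rose, 2 fell and 16 did not pass, with a median of -0.06. Taf15, an RNA-binding protein, rose from 53.0 ± 3.81 to 81.1 ± 7.09 normalized CPM (0.61, SE 0.11, edgeR adjusted p = 0.00246). Nono, a core protein of the paraspeckle, fell by 0.49 (SE 0.11, adjusted p = 0.008), and Hnrnpf fell by 0.36 (SE 0.10, adjusted p = 0.0226). Sfpq, the partner of Nono, differed by 0.10 (adjusted p = 0.561). Without 5-week replicate 3, 6 rose and 6 fell, and of all 15922 genes tested in that fit 3225 rose and 2817 fell.

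Among 25 nuclear speckle and splicing proteins, 4 rose, 5 fell and 16 did not pass (median -0.06), beside the same 15.5% and 13.3% of all genes. Srrm2, a scaffold of the speckle, rose from 536 ± 148 to 1200 ± 5.51 normalized CPM (1.16, SE 0.18, edgeR adjusted p = 0.000888), and Srrm1 rose by 0.99 (SE 0.11, adjusted p = 0.000165). Clk4, a kinase of splicing factors, fell by 0.64 (SE 0.14, adjusted p = 0.00593), and Sf1, which binds the branch point, rose by 0.45 (SE 0.11, adjusted p = 0.0127). The number that passed was 15 without 5-week replicate 3, 3 without 5-week replicate 1, and 4 without either 24-week replicate 1 or 24-week replicate 2. In the same fits 6042 of 15922, 2930 of 15899, 3087 of 16857 and 2836 of 16807 genes passed, in that order.

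For the 3′ end, 13 of 14 factors were tested, of which 1 rose and 5 fell (median -0.09), where 15.5% of all genes tested rose and 13.3% fell. The 5 were subunits of RNase P and the related RNase MRP, among them Pop7 (fell by 0.82, SE 0.19, edgeR adjusted p = 0.00765), Pop5 (fell by 0.68, SE 0.16, adjusted p = 0.00931) and Pop4 (fell by 0.51, SE 0.14, adjusted p = 0.0204). Dis3, a nuclease of the RNA exosome, rose by 0.46 (SE 0.14, adjusted p = 0.0274). Mettl16, which binds the Malat1 triple helix, differed by 0.01 (SE 0.12, adjusted p = 0.974). These are low rows, with Pop7 at 7.61 ± 0.291 and 4.31 ± 0.673 normalized CPM. Only 2 or 3 passed when any 1 library other than 5-week replicate 3 was left out, 3 with total counts as the scaling, and 1 with length and GC trends removed.

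Of 40 other named long non-coding RNAs, 30 had a row and 24 were tested, of which 3 rose and 6 fell (median 0.04). Over all tested genes of long non-coding classes 11.6% rose and 7.38% fell. The snoRNA host genes Gas5 (from 118 ± 17.7 to 70.6 ± 4.06 normalized CPM, -0.75, SE 0.13, edgeR adjusted p = 0.00155) and Zfas1 (-0.79, SE 0.14, adjusted p = 0.00237) were lower. Airn and Fendrr, at 0.165 ± 0.0735 and 0.221 ± 0.0839 normalized CPM at 5 weeks, rose to 1.4 ± 0.142 and 1.69 ± 0.304 (3.05 and 2.89, adjusted p = 0.000516 and 0.000521). Hotair had 0 counts in all libraries. Without either 5-week replicate 1 or 24-week replicate 2, 5 passed.

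**Figure D4:**
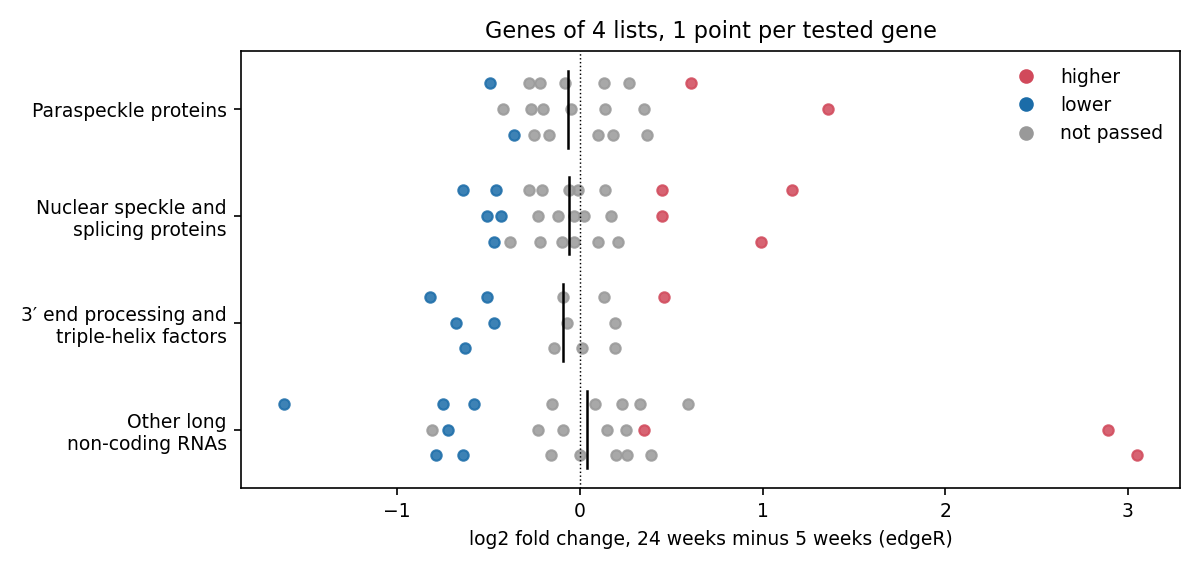
Difference between the ages (log2, 24 weeks minus 5 weeks) for every tested gene of 4 lists (20, 25, 13 and 24 genes), coloured by the edgeR call at adjusted p of 0.05, with a black line at the list's median. The medians lie between -0.09 and 0.04.

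Genes beside the long non-coding RNAs were read out to 200000 bases. Of the 17 tested protein-coding genes near Malat1, 1 rose and 2 fell, where 15.5% of all genes tested rose and 13.3% fell. Frmd8, 4224 bases from Neat1, differed by -0.38 (SE 0.13, edgeR adjusted p = 0.0532). Slc25a45, a mitochondrial carrier 32330 bases from Neat1, fell by 0.56 (SE 0.12, adjusted p = 0.00566). Ltbp3, which binds latent TGF-beta, rose by 1.48 (SE 0.17, adjusted p = 0.000142). Near Miat 4 of 9 fell and none rose, where 13.3% of all genes tested fell and 15.5% rose, and nothing particular to the locus is read from this. Its nearest, Cryba4, 17098 bases away, fell by 0.72 (SE 0.16, adjusted p = 0.00755), and Crybb1, the next, differed by -0.42 (SE 0.21, adjusted p = 0.145). At Dleu2, Trim13 overlaps it on the opposite strand (-0.12, SE 0.29, adjusted p = 0.793) and Spryd7 lies 45953 bases away (-0.08, SE 0.17, adjusted p = 0.761). Of 3 tested neighbours of Dleu2 1 passed, where 28.8% of all genes tested passed. It was Kpna3, a nuclear import receptor 162965 bases away, which rose by 0.59 (SE 0.14, adjusted p = 0.00996). Beside the chromosome 17 pair, the pheromone genes Esp38 and Esp15 had 0 counts in every library.

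Genes with the most similar profile were searched among the 10118 tested genes whose mean log2 CPM reached 3, by the largest difference in centred log2 CPM over the 6 libraries. Malat1 was nearest to Pcmtd1 (0.05) and Tsga10 (0.06), both low in 5-week replicate 3. Dleu2 was nearest to Iqgap2 (0.06) and Stk3 (0.09), Miat to Dnajc15 (0.10) and Rps12 (0.12), Pvt1 to the sense-intronic AU015336 (0.12), and Neat1 to Dlg4 (0.19) and Lrmda (0.20). Gm26917 was nearest to mt-Cytb (0.25) and Egr3 (0.35). Gm26924 had no close match, with Cyyr1 at 0.69 and mt-Nd5 at 0.73. The 2 genes mt-Cytb and mt-Nd5 code for proteins of the mitochondrial respiratory chain.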

How the data were processed

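Strand-specific, paired-end RNA-seq counts of 6 WT microglia libraries were used, and the Het libraries were not analysed here. The authors trimmed reads, mapped them with TopHat2 2.0.13 (build GRCm38), and deposited raw counts of read pairs per Ensembl gene from HTSeq 0.6.1, uniquely placed and on the reverse strand. Their DESeq2 1.6.3 comparison is not used. Whether poly(A) RNA was selected is not given in the sources used here. The 5 rows that name no gene stayed out of library sizes. Symbols and positions came from GENCODE M21 (37607 of 38924 rows matched). Gm26924, called Gm42418 there, was matched by its Ensembl identifier, which the study's gene table pairs with that symbol. Depth was 10410625 to 46434788 gene counts per library.

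Differences between the ages came from edgeR 4.0.16 (R 4.3.3) (TMM factors, default filter by age, 16157 genes, quasi-likelihood test with age as the only term, Benjamini-Hochberg adjustment, 24 minus 5 weeks, threshold 0.05). The SE of a log2 difference is its size over the root of F. Normalized CPM uses the TMM library sizes. Shares and ratios were compared with exact two-sided permutation tests, whose smallest p is 0.1. Named genes are the 7, up to 4 of each list by smallest p, the nearest protein-coding genes, the 2 nearest profiles and the microRNA genes inside Dleu2 and Pvt1. A few genes that this rule names are not reported here. Sfpq, Mettl16 and Gm27702 were added after their values were seen. The members and lists were chosen with earlier results of these data known. The script was tested on simulated counts. Alternatives were other scalings, DESeq2 1.42.0, limma-voom (limma 3.58.1), other filters, a replicate block, removal of length and GC trends, and leaving out each library.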

Additional observations from a re-analysis of the deposited data

How the results depend on the processing

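Gm26924, Gm26917, Pvt1 and Miat kept their direction and stayed past the threshold in all 15 alternatives, with adjusted p up to 0.0451 for Miat and 0.0441 for Pvt1 when a library was left out. The genes were chosen with earlier results known, so this describes the values and gives them no support. The number of the 7 that passed ranged from 4 to 6 with a library left out. The number of all genes passing ranged from 2836 (without 24-week replicate 2) to 6042 (without 5-week replicate 3). Lists of paraspeckle, speckle, 3′ end and other long non-coding genes passed in 3 to 12, 3 to 15, 2 to 6 and 5 to 9 members with a library left out. For the 3′ end, 3 passed with total counts and 1 with trends removed. Malat1 ranged from -0.03 to 0.27 on the log2 scale with a library left out and was -0.05 with trends removed. Neat1 ranged from 0.28 to 0.72, was 0.47 and past the threshold with no filter (adjusted p = 0.0368) and was -0.05 with trends removed. Dleu2 ranged from -0.26 to -0.04. Over all uniquely placed pairs, the share of Malat1 differed by -0.0446 and that of the 5 genes other than the chromosome 17 pair by -0.0314 percentage points, in place of higher shares at 24 weeks. With that denominator, which is larger in every library, the difference was also smaller for Neat1 (0.0144), the chromosome 17 pair (0.607) and all 7 (0.576). The Dleu2 share ranged from -0.00163 to 0.000587 percentage points and the log2 ratio of Neat1 to Malat1 from -0.01 to 0.75. The causes were not tested.

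Replicate numbers did not pair the mice: deviations of libraries with the same number correlated at 0.066, 0.089 and -0.045. With a replicate block 2424 genes were higher and 1951 lower, the same number of the 7 passed (4), and the adjusted p of Neat1 was 0.0537. It changed no call among the 7. Not every library correlated best with its own number.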
